A study of Mus musculus with 6 samples.

Results

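The lysosome and autophagy genes described here are 32 genes chosen by symbol with earlier results of these data known, all of them present among the 25239 genes of the count table. They comprise the transcription factors Tfeb, Tfe3 and Mitf, 7 cathepsins, 6 glycosidases, 7 genes for lysosomal membrane, channel, cholesterol-export and saposin proteins, 3 subunits of the proton pump and 6 autophagy genes. RNA was sequenced from follicle-enriched thyroid organoids at day 31 of differentiation of a G4 RosaLuc mouse embryonic stem cell line that carries the transgenes TRE-Nkx2-1-Pax8 and bTg-NES-BrafV637E-ERT2, in 3 groups of 2 libraries. All groups carried the same transgenes, received doxycycline to switch on Nkx2-1 and Pax8, and were kept in 8-Br-cAMP. The cAMP group was the uninduced control, which received the ethanol vehicle. The 4OHT group received 1 µM 4-hydroxytamoxifen for 5 days, which activates the BRAF V637E-ERT2 fusion protein. The PD+LY group received 4-hydroxytamoxifen together with 250 nM PD0325901, a MEK inhibitor, and 5 µM LY204002, a PI3K inhibitor, for 3 days. Per the methods, organoids given inhibitors had already spent 4 days in 4-hydroxytamoxifen without them, so that the total time in 4-hydroxytamoxifen may differ between the 4OHT and PD+LY groups, and such a difference cannot be told apart from the inhibitors. The fusion is driven by a bovine thyroglobulin promoter in a clonal line, that promoter was not active in every thyroglobulin-positive cell, and the enriched follicles still held other cells.

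Lysosomes digest proteins, glycans and lipids with acid hydrolases, and a vacuolar proton pump, the V-ATPase, keeps their lumen acidic. Autophagy delivers cytoplasm and organelles to them in double-membrane vesicles. TFEB, TFE3 and MITF bind E-box sequences in the promoters of many lysosomal genes, and their entry into the nucleus is restrained by phosphorylation by mTORC1 on the lysosome surface, so that transcript levels do not report how active these factors are. In the thyroid follicle, lysosomal cathepsins cut thyroglobulin taken up from the colloid and so release thyroid hormone.

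The E-box core CACGTG, which reads the same on both strands, was searched for in the RefSeq promoter windows (build GRCm38.p6, from 250 bases before to 50 bases after the annotated start). A window was at hand for 28 of the 32 members, and Ctsb, Ctsh, Npc1 and Atp6v1h had no entry. The core was in 10 of these 28 windows (35.7%), in 30 of 136 windows of the other lysosome, autophagy and mTORC1 genes listed below (22.1%), and in 8.09% of the windows of 27025 genes. The longer palindrome TCACGTGA, which contains the core, was in 6 member windows (21.4%), against 1.12% of all windows. These are matches of letters and not sites shown to be bound. The 27025 genes were not limited to those tested here. The members were chosen as lysosome and autophagy genes, and E-boxes are already known in many lysosomal promoters, as stated above.

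The stretches below show the densest array of cores, that of Lamp1, and an E-box from each of 5 genes for an acid protease, 2 glycosidases and 2 proton-pump subunits. The other core of Ctsd, with its first base at -245, is not printed. The core is in capitals, each stretch is written 5′ to 3′ on the strand of its gene, and positions count from the annotated start.
Lamp1 (chr8:13159092-13159159, plus strand, -69 to -2): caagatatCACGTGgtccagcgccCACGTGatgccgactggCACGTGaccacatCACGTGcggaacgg
Ctsd (chr7:142387910-142387935, minus strand, -108 to -83): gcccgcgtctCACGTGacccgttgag
Glb1 (chr9:114401020-114401045, plus strand, -58 to -33): gcttctgagtCACGTGgcctacagag
Gaa (chr11:119267813-119267838, plus strand, -150 to -125): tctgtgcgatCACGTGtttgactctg
Atp6v0d1 (chr8:105566052-105566077, minus strand, -13 to 13): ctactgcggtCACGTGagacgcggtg
Atp6v1a (chr16:44139375-44139400, minus strand, -141 to -116): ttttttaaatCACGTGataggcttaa
In the GENCODE M21 annotation of the same assembly, the Ctsd stretch lay in an exon of Ctsd and the others lay in no annotated exon.

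**Figure D1:**
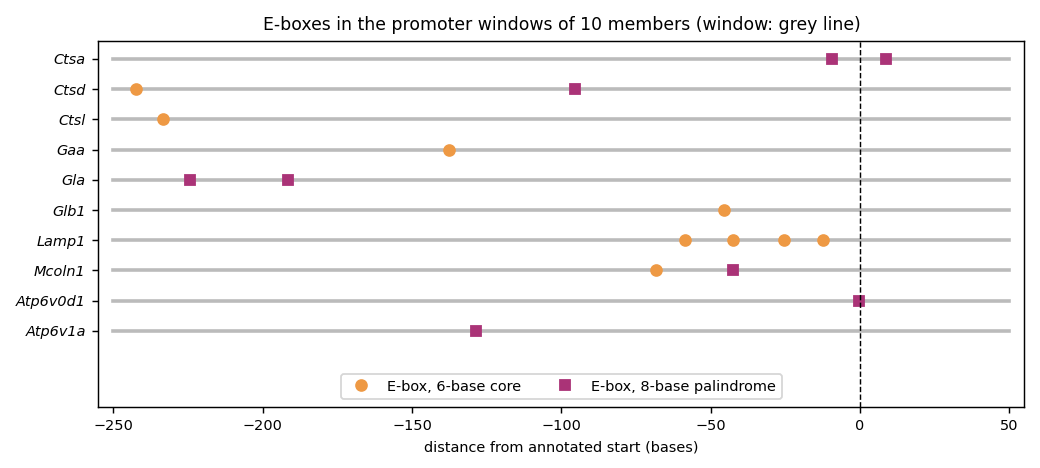
Positions of E-boxes in the promoter windows of the 10 members that had any, on an axis of bases from the annotated start (dashed line), with circles for the 6-base core and squares for the 8-base palindrome. Lamp1 had 4 cores between -61 and -15, while Ctsa, Ctsd, Gla and Mcoln1 had 2 each and the others 1 each.

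The libraries held between 14898409 and 20637959 counts. Of the 15256 genes that passed the filter on low counts, 31 were members. Their lowest count in any library was 175. The member left out was Ctss, a cathepsin of antigen-presenting cells, with 2 and 0 counts in cAMP, 4 and 6 in 4OHT and 0 and 0 in PD+LY. The 32 members together took 0.719% to 0.829% of the counts of a library. Thyroid follicular cell markers were detected in every library, and the sum of the 8 markers, mostly thyroglobulin, was 1102 to 1646 CPM (counts scaled to a common library total) in cAMP, 569 to 759 in 4OHT and 985 to 1974 in PD+LY. Markers of other cell types moved with the groups as well. The summed level of 11 mesenchymal markers was 1309 to 1456 CPM in cAMP, 2428 to 2535 in 4OHT and 4281 to 5055 in PD+LY. Most of that sum came from the collagen genes Col1a1, Col1a2 and Col3a1, each at 1166 to 1447 CPM in PD+LY, and the list did not move as a whole. From 4OHT to PD+LY, 5 of the 11 rose and 2 fell, namely Pdgfrb (log2 fold change -1.27) and Twist1 (-1.03), and Pdgfra and Lum differed by 0.03 and -0.10 and were not called. The 9 epithelial markers summed to 1192 to 1293, 874 to 985 and 810 to 853 CPM in cAMP, 4OHT and PD+LY, and 8 of the 9 were lower in PD+LY than in cAMP. Of 7 tested endothelial markers, whose sum was 178 to 205 CPM, 1 rose and 3 fell in 4OHT, and 5 were lower in PD+LY than in cAMP. Pluripotency markers summed to 3654 to 4152 CPM over 9 genes, above the thyroid sum in every library, and 4 were higher and 3 lower in PD+LY than in cAMP, among them Nanog (0.89) and Lin28a (-2.35). Of 6 tested neural progenitor markers, 2 fell in 4OHT, and 2 were higher and 2 lower in PD+LY than in cAMP. Markers of macrophages, which are rich in lysosomes, were low and lowest in PD+LY, with a sum over 14 genes of 5.65 to 7.92 CPM in cAMP, 4.87 to 9.60 in 4OHT and 2.82 to 3.16 in PD+LY. Ptprc, Adgre1, C1qa, C1qb and C1qc had 0 counts in every library, and of the 4 macrophage markers tested Lyz2 was called lower in PD+LY, with 9 and 30 counts in 4OHT and 0 and 4 in PD+LY. The part of these shifts in the results on the members was not tested, and in bulk samples fewer cells of a type cannot be told apart from less RNA per cell.

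Levels differed widely among the members when set per kilobase of annotated exon. Ctsd, Psap and Lamp1 held the 3 highest ranks in all 3 groups. The mean level of Ctsd was 438 CPM per kb for cAMP, 500 for 4OHT and 408 for PD+LY. Psap had 252, 327 and 331 CPM per kb, and Lamp1 had 240, 269 and 276, so that these neighbours in rank lay close to each other. At the other end of the order, Mitf had 1.59, 2.35 and 5.57 CPM per kb and Tfeb 3.44, 5.14 and 3.68. Of the genes that changed rank, Ulk1 went from 13 in cAMP and 4OHT to 8 in PD+LY, and Glb1 from 17 in cAMP to 13 in PD+LY, while Ctsh went from 23 to 28.

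**Figure D2:**
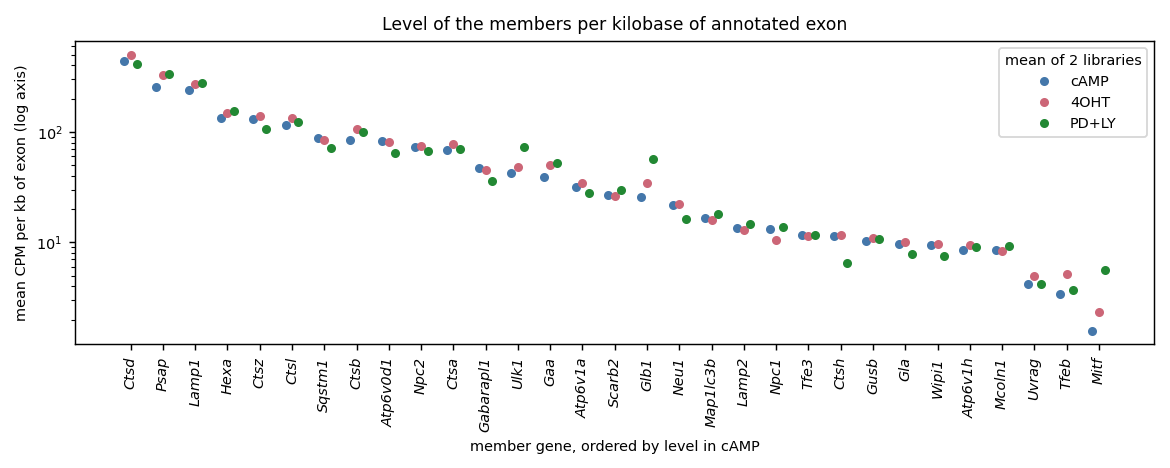
Mean level of the 31 tested members in CPM per kb of exon (log axis), ordered by the level in cAMP, with 1 point for each group (mean of 2 libraries). The order was largely kept across groups, with Ctsd at 438 and Mitf at 1.59 CPM per kb in cAMP, and the PD+LY points of Mitf, Glb1 and Ulk1 lay above those of the other groups.

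Braf V637E induction was read from 4OHT against cAMP, to see what the oncogene does to these cells. All libraries came from the line with the fusion, so effects of 4-hydroxytamoxifen itself cannot be told apart from those of the oncogene. At an adjusted p under 0.05, 5 members rose and none fell (edgeR's quasi-likelihood test, Benjamini-Hochberg adjustment over all tested genes). The members that rose were Tfeb, Ctsb, Gaa, Glb1 and Psap, by 0.34 to 0.58 on the log2 scale, and none reached the 2-fold change that the study also asked for. The called share was 16.1% of the tested members, against 8.39% of all tested genes, with 4.04% of genes called higher and 4.35% lower, and 2.67% past the 2-fold change as well. At an unadjusted p under 0.05, 7 members were higher and 1 was lower, and DESeq2 called 5 higher and 0 lower. The median log2 fold change of the members was 0.09, against -0.002 for all tested genes. Leaving out any 1 of the 4 libraries of these groups left 0 members called, so each of the 5 calls needed all 4 libraries, and leaving out either PD+LY library gave 6 higher and 1 lower, with Mitf and Npc1 added.

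Addition of the inhibitors (PD+LY against 4OHT), which addressed what combined MEK and PI3K inhibition does in the induced organoids, came with changes in both directions. No group received either inhibitor alone, so the effects of the MEK and PI3K inhibitors cannot be told apart. Mitf, Glb1, Npc1 and Ulk1 rose, while Tfeb, Ctsd, Ctsh, Ctsz, Neu1, Atp6v0d1, Gabarapl1 and Wipi1 fell. The 12 calls were 38.7% of the tested members, against 22.7% of all tested genes. The 4 higher members stood against a background of 10.7% of genes called higher, and the 8 lower members against 12.1% called lower. The median of the members was -0.11, against 0.01 for all tested genes. Mitf was the member that also passed the 2-fold threshold, as did 7.26% of all tested genes. Without 4OHT replicate 1 or without 4OHT replicate 2, 3 members remained higher and 1 lower. The calls of Mitf, Glb1, Ulk1 and Ctsh were made with each of the 6 libraries left out in turn.

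The inhibitor-treated organoids were also set against the uninduced control (PD+LY against cAMP). Mitf, Gaa, Glb1, Psap and Ulk1 were higher, and Ctsh, Ctsz, Neu1, Atp6v0d1, Sqstm1 and Gabarapl1 were lower. The 11 calls were 35.5% of the tested members, against 25.7% of all tested genes, with 12.1% of genes called higher and 13.7% lower. The median of the members was 0.06, against 0.005 for all tested genes. Mitf and Glb1 also passed the 2-fold threshold, as did 9.24% of all tested genes. The 5 higher calls and that of Ctsh were made with each library left out in turn. The number of lower calls was 2 without cAMP replicate 1, 1 without cAMP replicate 2, 3 without either 4OHT library and 4 without PD+LY replicate 1, and the number of higher calls was 9 without PD+LY replicate 2. The 3 comparisons share their groups and are not independent of each other. In each, the share of all tested genes included genes with fewer counts than any tested member. Shares at matched counts were not compared.

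**Figure D3:**
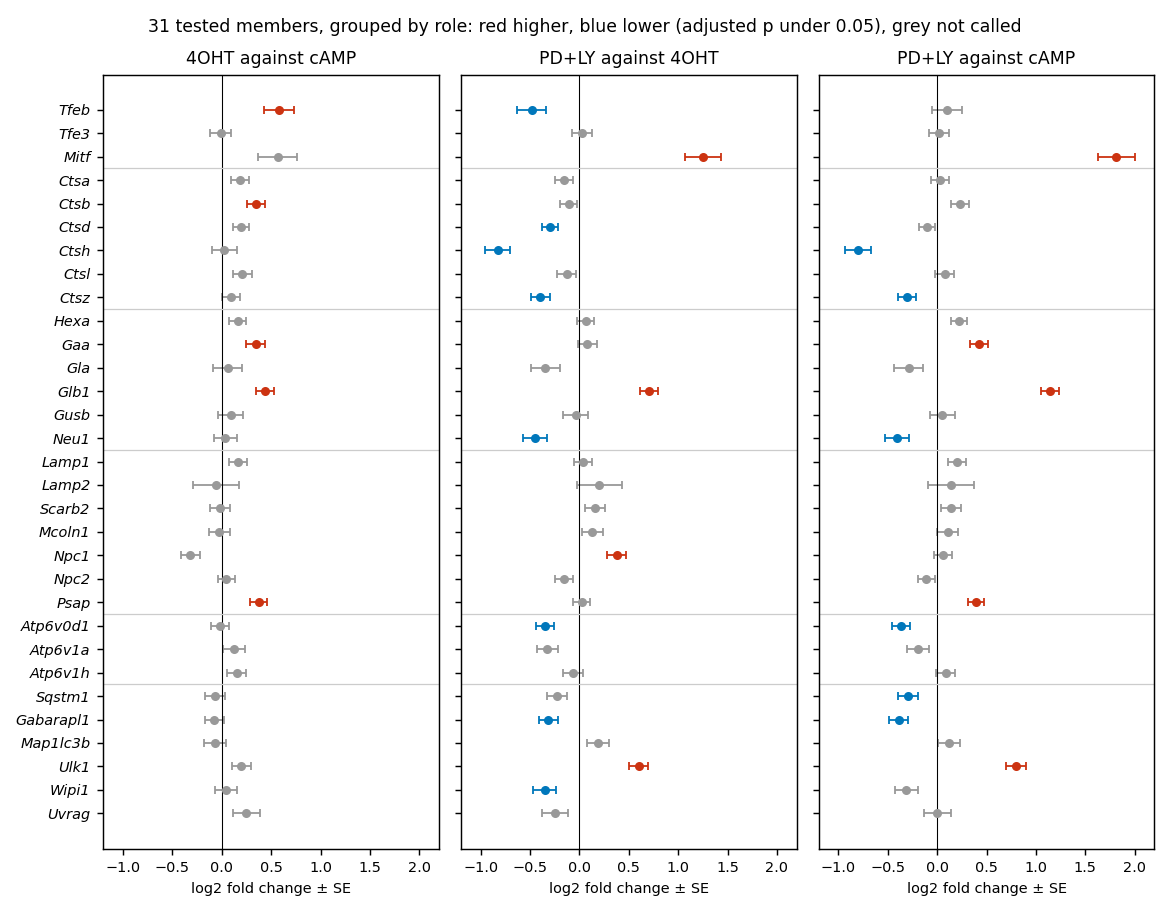
Log2 fold change with its SE for the 31 tested members in the 3 comparisons, grouped by role between grey lines (transcription factors, cathepsins, glycosidases, membrane and related proteins, proton-pump subunits, autophagy), with red for higher and blue for lower at an adjusted p under 0.05. Calls ran from -0.83 (Ctsh, PD+LY against 4OHT) to 1.82 (Mitf, PD+LY against cAMP), and in 4OHT against cAMP the 5 calls were all on the higher side.

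The 3 transcription factors of the MiT/TFE family had 3 different patterns. Tfeb (chr17:47737030-47792419, coordinates of genes being those of GENCODE M21 on GRCm38) was measured at 17.8 and 21.2 CPM in cAMP, 26.5 and 31.9 in 4OHT and 20.1 and 21.6 in PD+LY. Both 4OHT libraries were above all others, and the cAMP and PD+LY libraries overlapped. Tfeb rose by 0.58 (SE 0.15, adjusted p = 0.0353) in 4OHT and fell by 0.48 (SE 0.15, adjusted p = 0.0364) from 4OHT to PD+LY in edgeR, while PD+LY and cAMP differed by 0.10 (SE 0.15, adjusted p = 0.684). The rise was lost without any 1 of the 4 libraries compared (adjusted p of up to 0.316), and the fall without either 4OHT library or PD+LY replicate 1 (up to 0.317).

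Mitf (chr6:97807052-98021349), known as the regulator of the melanocyte lineage and also made in other cells from other promoters, had 11.0 and 8.67 CPM in cAMP, 15.7 and 13.3 in 4OHT and 39.8 and 29.2 in PD+LY. The 3 groups did not overlap, and the PD+LY libraries were the highest. Mitf was higher in PD+LY than in 4OHT by 1.25 (SE 0.18, adjusted p = 0.000706) and than in cAMP by 1.82 (SE 0.19, adjusted p = 4.56e-05). Its difference between 4OHT and cAMP was 0.57 (SE 0.20, adjusted p = 0.0997), which did not pass in the model of all 3 groups and passed at 0.0176 with no filter on low counts and at 0.0474 with only the 2 groups compared, and without either PD+LY library (0.0361 and 0.0349). Counts per gene do not tell which promoter the transcripts came from. The melanocyte markers Tyr, Dct, Tyrp1, Pmel, Mlana and Sox10 summed to 85.4 to 93.7 CPM in cAMP, 76.4 to 93.5 in 4OHT and 85.0 to 93.6 in PD+LY, all 6 had at least 3 counts in every library, and 0 of the 6 were called in any comparison by edgeR.

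Tfe3 (chrX:7762560-7775202) was the most abundant of the family, with 11.5 to 11.8 CPM per kb in the 3 groups. Its libraries had 107 and 108 CPM in cAMP, 104 and 109 in 4OHT and 100 and 117 in PD+LY, and the groups overlapped. The differences of Tfe3 were between -0.01 and 0.03 on the log2 scale (SE 0.10, adjusted p of 0.866 to 0.957 in edgeR).

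**Figure D4:**
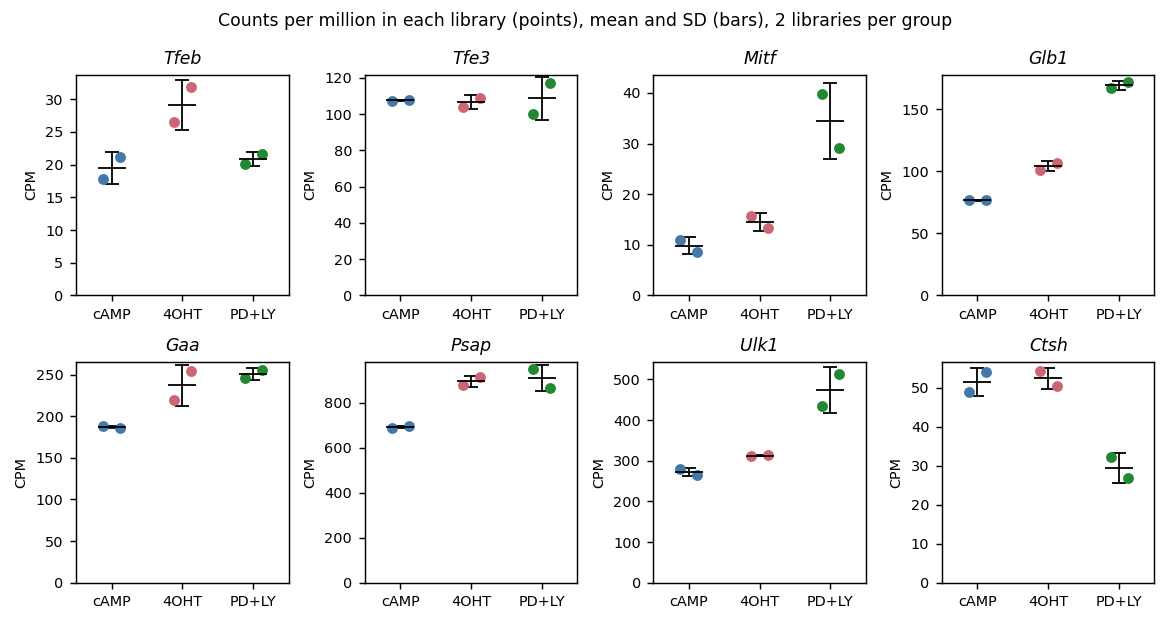
CPM of 8 members in each library (points), with the mean and SD of the 2 libraries of a group (bars), on axes that start at 0. The 4OHT libraries were the highest for Tfeb, the PD+LY libraries for Mitf, Glb1 and Ulk1, the cAMP libraries the lowest for Gaa and Psap and the PD+LY libraries the lowest for Ctsh, while the groups overlapped for Tfe3.

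Among the cathepsins, 1 of 6 tested members rose in 4OHT and 3 of 6 fell from 4OHT to PD+LY. Of all tested genes, 4.04% were called higher in 4OHT and 12.1% lower from 4OHT to PD+LY. Ctsb (chr14:63122462-63145923), a cysteine protease that cleaves thyroglobulin, had 518 and 498 CPM in cAMP, 625 and 666 in 4OHT and 633 and 563 in PD+LY. Every 4OHT and PD+LY library was above both cAMP libraries. Ctsb rose by 0.34 in 4OHT (SE 0.09, edgeR adjusted p = 0.034), which was lost without any 1 of the 4 libraries (adjusted p of up to 0.279). Its exons overlap those of Fdft1 on the opposite strand for 774 bases, and unstranded counting cannot separate reads there.

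Ctsd (chr7:142375911-142388038), the main aspartic protease of lysosomes, had 1053 and 1009 CPM in cAMP, 1154 and 1199 in 4OHT and 992 and 924 in PD+LY. The PD+LY libraries were below all others, and the 4OHT libraries were the highest. Ctsd fell by 0.30 from 4OHT to PD+LY (SE 0.08, edgeR adjusted p = 0.0201), while its difference between 4OHT and cAMP was 0.19 (SE 0.08, adjusted p = 0.171). Without either 4OHT library the fall did not pass (adjusted p of up to 0.18). Its exons share 808 bases with Gm49369 on the same strand.

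Ctsh (chr9:90054152-90076089), a cysteine protease that acts mainly as an aminopeptidase, had the largest fall among the members. It had 48.9 and 54.0 CPM in cAMP, 54.4 and 50.5 in 4OHT and 32.2 and 26.8 in PD+LY. The cAMP and 4OHT libraries overlapped and the PD+LY libraries were below both. Ctsh was lower in PD+LY than in 4OHT by 0.83 (log2 fold change -0.83, SE 0.13, adjusted p = 0.000937) and than in cAMP (log2 fold change -0.80, SE 0.13, adjusted p = 0.00084) in edgeR.

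Ctsz (chr2:174427493-174439039), a carboxypeptidase, had 181 and 194 CPM in cAMP, 192 and 208 in 4OHT and 146 and 158 in PD+LY. Both PD+LY libraries were below the other 4. The log2 fold change was -0.40 against 4OHT (SE 0.09, adjusted p = 0.0111) and -0.30 against cAMP (SE 0.09, adjusted p = 0.033) in edgeR, the latter with an adjusted p of 0.0702 when only these groups were fitted. The first call was lost without either 4OHT library (adjusted p of up to 0.156), and the second without either cAMP library, either 4OHT library or PD+LY replicate 1 (up to 0.234). Ctsl, which also cleaves thyroglobulin, and Ctsa, which protects beta-galactosidase and neuraminidase, were called in no comparison. Their log2 fold changes ran from -0.16 to 0.21.

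Of the 6 glycosidases, Gaa and Glb1 rose in 4OHT. From 4OHT to PD+LY, Glb1 rose and Neu1 fell. Of all tested genes, 4.04% were called higher in 4OHT, and 10.7% higher and 12.1% lower from 4OHT to PD+LY. Glb1 (chr9:114401076-114474898) encodes beta-galactosidase, the enzyme whose activity is stained in senescent cells. It had 76.6 and 77.2 CPM in cAMP, 101 and 107 in 4OHT and 167 and 172 in PD+LY. The 3 groups lay in this order without overlap and with close replicates. Glb1 rose by 0.44 in 4OHT (SE 0.09, edgeR adjusted p = 0.0137) and by a further 0.70 from 4OHT to PD+LY (SE 0.09, adjusted p = 0.000332). In PD+LY it was 1.14 above cAMP (SE 0.09, adjusted p = 7.52e-06). The rise in 4OHT was lost without any 1 of the 4 libraries compared (adjusted p of up to 0.168), and the other differences were called with each library left out. Its exons share 165 bases with Tmppe on the same strand.

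Gaa (chr11:119267887-119285454), the acid alpha-glucosidase that degrades glycogen, had 188 and 186 CPM in cAMP, 220 and 254 in 4OHT and 246 and 255 in PD+LY. The cAMP libraries were below all others and the 4OHT and PD+LY libraries overlapped. Gaa was higher than in cAMP by 0.34 in 4OHT (SE 0.09, adjusted p = 0.0455) and by 0.42 in PD+LY (SE 0.09, adjusted p = 0.0068) in edgeR, the former lost without any 1 of the 4 libraries compared (adjusted p of up to 0.413).

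Neu1 (chr17:34931253-34935953), the lysosomal sialidase that forms a complex with Ctsa and Glb1 proteins, had 72.8 and 89.4 CPM in cAMP, 78.1 and 88.4 in 4OHT and 59.0 and 63.1 in PD+LY. Both PD+LY libraries were below the other 4. The log2 fold change was -0.45 against 4OHT (SE 0.12, adjusted p = 0.0208) and -0.41 against cAMP (SE 0.12, adjusted p = 0.027) in edgeR, the latter with an adjusted p of 0.0554 when only these groups were fitted. Both calls were lost without either 4OHT library or PD+LY replicate 1, and the latter also without cAMP replicate 2 (adjusted p of up to 0.219 and 0.3). In PD+LY, 2 members whose proteins form a complex with each other, Glb1 and Neu1, thus differed from 4OHT in opposite directions. Hexa, a subunit of beta-hexosaminidase, Gla, the alpha-galactosidase, and Gusb, the beta-glucuronidase, were called in no comparison, with log2 fold changes from -0.35 to 0.22.

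Among the 7 genes for membrane, channel, cholesterol-export and saposin proteins, Psap rose in 4OHT and Npc1 rose from 4OHT to PD+LY. Of all tested genes, 4.04% and 10.7% were called higher in these comparisons. Psap (chr10:60277627-60302597) encodes the precursor of the saposins, which present sphingolipids to their hydrolases. It had 688 and 696 CPM in cAMP, 878 and 914 in 4OHT and 951 and 868 in PD+LY. The 4OHT and PD+LY libraries overlapped and were all above cAMP. Psap was higher than in cAMP by 0.37 in 4OHT (SE 0.08, adjusted p = 0.0172) and by 0.39 in PD+LY (SE 0.08, adjusted p = 0.00452) in edgeR, the former lost without any 1 of the 4 libraries compared (adjusted p of up to 0.17).

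Npc1 (chr18:12189692-12236400), the membrane protein that moves cholesterol out of the lysosome, had 152 and 145 CPM in cAMP, 114 and 124 in 4OHT and 159 and 150 in PD+LY. Both 4OHT libraries were the lowest, and the cAMP and PD+LY libraries overlapped. The difference between 4OHT and cAMP was -0.32 (SE 0.09, edgeR adjusted p = 0.0569), which missed the threshold in the model of all 3 groups and passed with no filter on low counts (0.0351), with only the 2 groups compared (0.0207) and without either PD+LY library (0.0179 and 0.0188), and Npc1 rose by 0.37 from 4OHT to PD+LY (SE 0.09, adjusted p = 0.0136), which was lost without either 4OHT library (adjusted p of up to 0.152). Its exons overlap Gm15956 and Rmc1 on the opposite strand for 601 bases. Npc2, the soluble partner that hands cholesterol to Npc1, had differences of -0.16 to 0.05 and was not called.

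The main glycoproteins of the lysosomal membrane were not called in any comparison. Lamp1 had log2 fold changes of 0.04 to 0.20, Scarb2, which carries glucocerebrosidase to lysosomes, of -0.02 to 0.15, and the calcium channel Mcoln1 of -0.02 to 0.13. Lamp2 was the least certain of them, with 183 and 97.9 CPM in the PD+LY libraries, 150 and 105 in cAMP and 124 and 120 in 4OHT, so that the SE of its log2 fold changes was 0.23.

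The V-ATPase consists of a membrane sector and a catalytic sector. Atp6v0d1 (chr8:105524465-105566047), which links the membrane sector to the central stalk, had 145 and 151 CPM in cAMP, 150 and 143 in 4OHT and 116 and 114 in PD+LY. The PD+LY libraries were below the other 4, which overlapped. The log2 fold change was -0.35 against 4OHT (SE 0.09, adjusted p = 0.0157) and -0.36 against cAMP (SE 0.09, adjusted p = 0.0106) in edgeR. These calls were lost without either 4OHT library (adjusted p of up to 0.149) and without either cAMP library (up to 0.1), respectively. The catalytic subunit Atp6v1a had 205 and 180 CPM in cAMP, 207 and 214 in 4OHT and 185 and 151 in PD+LY, and its difference of -0.32 between PD+LY and 4OHT did not pass (SE 0.11, adjusted p = 0.0548). It passed in DESeq2 (0.0481), with no filter on low counts (0.015), with at least 10 counts in every library (0.0477) and without PD+LY replicate 1 (0.00553). Atp6v1h, which couples the sectors, had differences of -0.06 to 0.15 and was not called.

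Of the 6 autophagy genes, 0 were called in 4OHT against cAMP by edgeR, with 0 also at an unadjusted p under 0.05. Of all tested genes, 8.39% were called there. From 4OHT to PD+LY, Ulk1 rose while Gabarapl1 and Wipi1 fell, beside 10.7% of all tested genes called higher and 12.1% lower. Ulk1 (chr5:110784488-110810097), the kinase that starts autophagy, had 280 and 265 CPM in cAMP, 312 and 313 in 4OHT and 434 and 513 in PD+LY. The PD+LY libraries were the highest, with no overlap between groups. Ulk1 rose by 0.60 from 4OHT to PD+LY (SE 0.10, edgeR adjusted p = 0.00119) and was 0.80 above cAMP (SE 0.10, adjusted p = 0.000125).

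Gabarapl1 (chr6:129533160-129542346), a member of the ATG8 family that is attached to the autophagosome membrane, had 94.4 and 96.1 CPM in cAMP, 90.0 and 90.7 in 4OHT and 75.2 and 70.1 in PD+LY. The PD+LY libraries were the lowest. The log2 fold change was -0.31 against 4OHT (SE 0.10, adjusted p = 0.0355) and -0.39 against cAMP (SE 0.10, adjusted p = 0.0111) in edgeR, the former with an adjusted p of 0.0625 when only these groups were fitted. The former was called only without PD+LY replicate 1 (adjusted p of up to 0.217 without the others), and the latter was lost without either cAMP library (up to 0.0899). Its exons overlap 1700101I11Rik on the opposite strand for 570 bases. Map1lc3b, which encodes the LC3B protein of the same family, had 137 and 115 CPM in cAMP, 129 and 111 in 4OHT and 142 and 131 in PD+LY and was not called.

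Wipi1 (chr11:109573331-109611967), which binds the lipid that marks the site of autophagosome formation, had 43.2 and 40.0 CPM in cAMP, 41.7 and 43.9 in 4OHT and 33.8 and 33.2 in PD+LY. Both PD+LY libraries were below the other 4. Its log2 fold change of -0.35 between PD+LY and 4OHT (SE 0.12, edgeR adjusted p = 0.0471) was the least firm of the calls, since it was lost with each of the 6 libraries left out in turn (adjusted p of up to 0.282) and in DESeq2 (adjusted p = 0.0596). Sqstm1 (chr11:50199366-50210827), the cargo receptor p62, which is itself degraded by autophagy, had 284 and 308 CPM in cAMP, 268 and 296 in 4OHT and 222 and 259 in PD+LY. The PD+LY libraries were the lowest. Sqstm1 had a log2 fold change of -0.30 between PD+LY and cAMP (SE 0.10, edgeR adjusted p = 0.0492), with an adjusted p of 0.0872 when only these groups were fitted and of up to 0.275 with a library left out, when it was called only without PD+LY replicate 2. Its exons overlap Mrnip on the opposite strand for 580 bases. Uvrag, a subunit of the complex that makes that lipid, had differences of -0.25 to 0.25 and was not called.

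Setting the calls beside the promoter sequences, members with and without a CACGTG core held calls in both directions. In 4OHT against cAMP, 2 of 10 tested members with the core rose (Glb1 and Gaa), and 2 of 17 without it rose. From 4OHT to PD+LY, 1 of the 10 rose (Glb1) and 2 fell (Ctsd and Atp6v0d1), and of the 17 without it 2 rose and 5 fell. Of all tested genes, 4.04% were called higher in 4OHT against cAMP, and 10.7% higher and 12.1% lower from 4OHT to PD+LY. The median log2 fold changes of the members with and without the core were 0.17 and 0.05 in 4OHT against cAMP, and -0.14 and -0.04 in PD+LY against 4OHT. In PD+LY against cAMP both medians were 0.05. Lamp1, with 4 cores, was called in no comparison.

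A wider set of 164 further genes of the lysosome, autophagy and mTORC1 signalling, of which 160 were tested, was read with the same model. In 4OHT against cAMP, 7 rose and 6 fell, a called share of 8.12% beside 8.39% of all tested genes. From 4OHT to PD+LY, 22 rose and 16 fell (23.8% beside 22.7%), and 23 were higher and 19 lower in PD+LY against cAMP (26.2% beside 25.7%). In each comparison the called share of the wider set lay near the background.

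Among 27 genes of mTORC1 and its lysosomal regulators, Rragb, a Rag GTPase that recruits mTORC1 to the lysosome, had the largest change in 4OHT. It had 41.4 and 33.9 CPM in cAMP, 13.5 and 12.4 in 4OHT and 36.7 and 31.9 in PD+LY. The 4OHT libraries were far below the other 4, and the cAMP and PD+LY libraries overlapped. Rragb fell by 1.54 in 4OHT (SE 0.15, adjusted p = 0.000122) and rose by 1.41 from 4OHT to PD+LY (SE 0.15, adjusted p = 9.19e-05) in edgeR, and both calls were made with each library left out in turn. Its close paralog Rraga had 27.2 to 40.2 CPM and was not called, and how reads that match both genes were counted is not given in the sources used here. Rragd, another Rag GTPase, fell by 0.66 in 4OHT (SE 0.11, adjusted p = 0.00373), a call lost without 4OHT replicate 1 (adjusted p = 0.0833). Lamtor2, a subunit of the complex that anchors the Rag proteins, was higher in PD+LY than in cAMP by 0.48 (SE 0.10, adjusted p = 0.00572), a call lost without cAMP replicate 2 (adjusted p = 0.057), and Fnip1, a partner of folliculin, was lower (log2 fold change -0.51, SE 0.13, adjusted p = 0.0167), a call lost without cAMP replicate 1 or PD+LY replicate 2 (adjusted p of up to 0.119). Tfec, the remaining gene of the MiT/TFE family, was at the edge of detection. It had 18 and 29 counts in cAMP, 14 and 21 in 4OHT and 2 and 6 in PD+LY. In edgeR, Tfec was lower in PD+LY than in 4OHT (log2 fold change -2.36, SE 0.643, adjusted p = 0.021). It was also lower than in cAMP (-2.65, SE 0.625, adjusted p = 0.00888), and neither call was kept with each library left out in turn.

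Of the 37 further hydrolases and cofactors, 12 were called from 4OHT to PD+LY, 7 higher and 5 lower (32.4%, beside 22.7% of all tested genes). Manba, the beta-mannosidase that removes mannose from glycans, had 141 and 124 CPM in cAMP, 88.4 and 82.6 in 4OHT and 28.9 and 29.1 in PD+LY. The groups lay in this order without overlap. Manba fell by 0.63 in 4OHT (SE 0.10, adjusted p = 0.00393) and by a further 1.56 from 4OHT to PD+LY (SE 0.11, adjusted p = 5.23e-06) in edgeR. The first of these was lost without cAMP replicate 1 or either 4OHT library, with an adjusted p of up to 0.0834. Ctsc, which activates granule proteases, had 48.0 and 53.7 CPM in cAMP and 30.6 and 21.5 in PD+LY (log2 fold change -0.97, SE 0.16, adjusted p = 0.000991). The largest rises from 4OHT to PD+LY were those of Sgsh (0.87, SE 0.26, edgeR adjusted p = 0.0309) and Arsg (0.85, SE 0.26, 0.0353). Both were low, with means of 4.08 and 3.25 CPM in 4OHT and 7.50 and 5.86 in PD+LY. Arsg did not pass in DESeq2 (adjusted p = 0.0683). With a library left out, their log2 fold changes ran from 0.72 to 1.06 and from 0.705 to 0.98. Gm2a, the activator of ganglioside breakdown, rose by 0.44 in 4OHT (SE 0.10, adjusted p = 0.0213), a call lost without any 1 of the 4 libraries compared (adjusted p of up to 0.28).

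Of the 29 tested genes of lysosomal membrane, transport and sorting, 8 were called from 4OHT to PD+LY, 4 in each direction. The called share was 27.6%, beside 22.7% of all tested genes. Ostm1, the partner of the chloride transporter Clcn7, had 45.8 and 38.7 CPM in cAMP, 45.0 and 43.6 in 4OHT and 93.1 and 83.3 in PD+LY. Only the PD+LY libraries stood apart, and Ostm1 rose by 0.99 from 4OHT to PD+LY (SE 0.12, adjusted p = 0.000202). Cd68, a lysosomal glycoprotein often used to stain macrophages, had 63.6 and 66.1 CPM in cAMP, 56.2 and 61.2 in 4OHT and 30.8 and 32.6 in PD+LY. Cd68 fell from 4OHT to PD+LY (log2 fold change -0.89, SE 0.11, adjusted p = 0.000275). Laptm5 also fell (log2 fold change -0.84, SE 0.14, adjusted p = 0.00158). Beside these falls, Ptprc, Adgre1 and the C1q genes had 0 counts in every library, and all 4 macrophage markers tested were lower in PD+LY than in 4OHT by fold change, of which Lyz2 was called (log2 fold change -3.44, adjusted p = 0.0185) and Cd14 (-1.33), Itgam (-1.27) and Csf1r (-0.41) were not. Among the markers with too few counts to test, Spi1 had 4 and 8 counts in 4OHT and 0 and 0 in PD+LY. Fcer1g had 2 and 7 in 4OHT and 0 and 2 in PD+LY, and Aif1 0 and 5, then 2 and 0. Tyrobp had 0 and 6 in 4OHT and 4 and 2 in PD+LY, and Mrc1 2 and 4, then 6 and 2. At such counts no direction can be read for the untested markers. The summed level of the 14 macrophage markers was 4.87 to 9.60 CPM in 4OHT and 2.82 to 3.16 in PD+LY. The part of these markers in the falls of Cd68 and Laptm5 was not tested. Mcoln3, a calcium channel related to Mcoln1, had 6.79 and 5.60 CPM in cAMP, 1.47 and 2.58 in 4OHT and 1.53 and 0.972 in PD+LY, and was lower than in cAMP in both other groups (log2 fold changes -1.59 and -2.30, SE 0.34 and 0.35, adjusted p = 0.0143 and 0.000594), the first of these lost without cAMP replicate 1 or 4OHT replicate 1 (adjusted p of up to 0.156).

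Of 50 further autophagy genes, 6 were called in 4OHT, 12 from 4OHT to PD+LY and 14 between PD+LY and cAMP. The shares of all tested genes called in these comparisons were 8.39%, 22.7% and 25.7%, respectively. Atg16l2, a relative of the scaffold protein Atg16l1, had 25.1 and 28.4 CPM in cAMP, 45.6 and 41.2 in 4OHT and 72.7 and 90.4 in PD+LY. The groups rose in this order without overlap, and Atg16l2 was 1.60 higher in PD+LY than in cAMP (SE 0.14, edgeR adjusted p = 1.11e-05). Gabarapl2, of the same family as Gabarapl1, had 71.0 and 75.0 CPM in cAMP, 114 and 110 in 4OHT and 123 and 131 in PD+LY. It rose by 0.62 in 4OHT (SE 0.09, adjusted p = 0.00266), a call lost without 4OHT replicate 1 (adjusted p = 0.0605). Bnip3, a receptor for the autophagy of mitochondria, had 285 and 264 CPM in cAMP, 158 and 190 in 4OHT and 147 and 124 in PD+LY. It fell by 0.66 in 4OHT (SE 0.12, adjusted p = 0.00588), a call lost without 4OHT replicate 1 (adjusted p = 0.116). Optn, a cargo receptor, was lower in PD+LY than in cAMP (log2 fold change -1.29, SE 0.14, adjusted p = 7.47e-05). Atg9b, a lipid scramblase of the early autophagosome, had 19.5 and 21.9 CPM in 4OHT and 2.75 and 5.59 in PD+LY (log2 fold change -2.31, SE 0.26, adjusted p = 0.000125). Atg9b exons overlap those of Nos3, those of Optn 4930551O13Rik, those of Bnip3 Gm45507, those of Ostm1 Gm15200 and those of Atg16l2 Fchsd2, each on the opposite strand, where unstranded counts cannot be separated.

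Of the 17 tested further V-ATPase subunits, 0 were called in 4OHT against cAMP by edgeR, beside 8.39% of all tested genes. At an unadjusted p under 0.05, 3 were higher and 1 was lower. From 4OHT to PD+LY, 3 rose and 1 fell (23.5%, beside 22.7% of all tested genes). Atp6v0e2 had the largest change and rose by 0.68 (SE 0.15, edgeR adjusted p = 0.00711), from a mean of 12.2 to 19.5 CPM. With a library left out, its log2 fold change ran from 0.63 to 0.74. Atp6v0a1 fell (log2 fold change -0.54, SE 0.11, adjusted p = 0.00441), and it had 114 and 132 CPM in cAMP, 107 and 121 in 4OHT and 80.5 and 76.2 in PD+LY. Its relative Atp6v0a4, a subunit of proton-secreting epithelia, rose by 0.58 (SE 0.16, adjusted p = 0.021), with 27.2 and 25.9 CPM in cAMP, 17.9 and 24.1 in 4OHT and 33.6 and 29.3 in PD+LY. The call of Atp6v0a1 was lost without 4OHT replicate 2 and that of Atp6v0a4 without 4OHT replicate 1 or PD+LY replicate 1.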

How the data were processed

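RNA from 6 organoid libraries was read as a table of raw counts per gene symbol. Per the methods, the authors trimmed paired reads with Trimmomatic, mapped them to mm10 with HISAT2 on Galaxy and deposited the counts from HTSeq, which ignored strand although the kit was stranded. At least 3 wells were pooled for each condition, and the methods call the libraries duplicates without saying whether they came from separate cultures (their general mention of independent experiments does not tell it for these libraries), so p-values measure the spread between these libraries, which may be technical.

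The counts were tested with edgeR 4.0.16 (R 4.3.3) by its quasi-likelihood test on 1 model of 3 groups, after filterByExpr (minimum count 10, minimum total 15), which removed 9983 genes, and TMM scaling. P-values were adjusted by Benjamini-Hochberg over 15256 genes and called under 0.05, and SE is the log2 fold change divided by the root of F. The study also required a 2-fold change. CPM used total counts times TMM factors, and 1 count was worth 0.0486 to 0.0667 CPM. Exon lengths and overlaps came from GENCODE M21, and promoter windows from RefSeq. On simulated data (PD+LY against 4OHT, 15019 genes), 51 of 67 genes changed by 0.75 on the log2 scale were recovered, 62 of 64 changed by 1 and 69 of 69 changed by 1.5, with 5 false calls. The simulation gave every gene in every group the same spread (biological coefficient of variation 0.105). Its recovery and false calls do not carry over to genes or groups that vary more. Members and lists were chosen with earlier results of these data known. Members with calls are described in full, at most 4 for each role, and the wider lists by at most the 3 called genes of largest change in each list and comparison. Alternatives were RLE size factors, DESeq2 1.42.0, other filters, other samples in the fit, a replicate block and leaving out each library.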

Additional observations from a re-analysis of the deposited data

How the results depend on the processing

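The replicate numbers were not taken to pair the libraries, since deviations from the group means correlated at 0.07 between cAMP and 4OHT, 0.21 between cAMP and PD+LY and 0.06 between 4OHT and PD+LY, with 2 numbers a group. With the replicate block, 6 members were called higher and 1 lower in 4OHT against cAMP, 4 and 10 from 4OHT to PD+LY, and 7 and 7 in PD+LY against cAMP, with Mitf (adjusted p = 0.0138) and Npc1 (0.0213) passing in 4OHT against cAMP and Atp6v1a (0.0104) from 4OHT to PD+LY. In the wider set the block gave 14 higher and 9 lower, 31 and 21, and 38 and 22. Requiring a 2-fold change left 0 higher and 0 lower members in 4OHT against cAMP, 1 and 0 from 4OHT to PD+LY and 2 and 0 for PD+LY set against cAMP, and 0 and 2, 1 and 3, and 2 and 7 genes of the wider set. Fitting only the groups compared gave 1 lower member in 4OHT against cAMP and 3 for PD+LY set against cAMP, and 12 higher and 13 lower genes of the wider set in 4OHT against cAMP. With no filter on low counts, 1 member was lower and 11 genes of the wider set were higher in 4OHT against cAMP. RLE size factors, DESeq2 and a minimum of 10 counts in every library moved no count of calls by over 1.5 times.

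Leaving out each library in turn gave 0 to 6 higher and 0 to 1 lower members in 4OHT against cAMP, 3 to 5 and 1 to 7 from 4OHT to PD+LY, and 5 to 9 and 1 to 6 in PD+LY against cAMP. In the wider set the ranges were 0 to 12 and 1 to 13, 5 to 31 and 6 to 17, and 11 to 28 and 11 to 23. These fits assume that the library left alone in its group varies like the others. The direction turned for Tfeb in PD+LY against cAMP without cAMP replicate 1 (-0.022, in a range of up to 0.24). For Tfe3 it turned in 4OHT against cAMP without 4OHT replicate 1 (range -0.05 to 0.028), in PD+LY against 4OHT without 4OHT replicate 1 (-0.005) or PD+LY replicate 2 (range -0.086 to 0.136), and for PD+LY set against cAMP without PD+LY replicate 2 (range -0.098 to 0.124). None of these 4 differences was called. In the simulated data recovery was lowest at a log2 change of 0.75, the smallest simulated, and most member differences were smaller than that. The cause of the lost calls was not tested beyond the smaller number of libraries.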
